A study of Mus musculus with 64 samples.

Results

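Transforming growth factor-β (TGF-β) and activin signaling was followed at the RNA level in mouse hearts through 10 genes chosen by name, which are 10 of the 30285 gene entries in the deposited expression table. They are the TGF-β ligands Tgfb1, Tgfb2 and Tgfb3, the TGF-β receptors Tgfbr1, Tgfbr2 and Tgfbr3, the activin subunits Inhba and Inhbb, the secreted activin inhibitor Fstl3, and the intracellular feedback inhibitor Smad7. TGF-β is secreted in a latent form that is held in the extracellular matrix; once released, it binds the type II receptor Tgfbr2, which recruits and activates the type I receptor Tgfbr1, and Smad2 and Smad3 then carry the signal to the nucleus. Activins are dimers of inhibin β subunits that signal through other receptors to the same Smads, follistatin-like proteins such as Fstl3 bind and block them, and Smad7 is itself induced by the pathway and dampens it. In the heart the pathway is best known for turning fibroblasts into matrix-producing cells under pressure overload. The rule puts no threshold on measured values, but the genes were named with earlier results of these data known.

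One RNA library was made from each of 64 hearts of male C57BL6 mice, which had surgery at 3 to 4 months of age. Wild type mice received sham surgery (WTSH) or transverse aortic constriction (WTTAC), in which a ligature narrows the aorta and overloads the heart with pressure, and mice with cardiac deletion of Ndufs4, a subunit of mitochondrial complex I, received the same operations (KOSH and KOTAC). Hearts were collected 1, 2, 4 and 8 weeks later, with 4 hearts in each of the 16 groups. The deletion came from a Cre transgene driven by the αMHC promoter, which is active in cardiomyocytes, so other cardiac cells kept the gene; for the wild type mice the labels give only WT, and whether they carried loxP sites or Cre was not stated. Ndufs4 checked the genotype labels. It averaged 109 FPKM (fragments per kilobase of transcript, scaled to the fragments mapped in the library) in WTSH, 101 in WTTAC, 31.4 in KOSH and 27.9 in KOTAC, with no KO heart as high as any WT heart.

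The libraries held 11689 to 13101 genes at FPKM 1 or more, and sequencing depth was unknown because FPKM values without counts do not carry it. Hearts 3 and 4 of both WTTAC and KOTAC at week 2 stood apart: their values fell with transcript length (slopes of −0.225 to −0.201, against −0.087 to 0.052 in the other 60 libraries), so results that rest on week 2 are also given without them. Differences are on the log2(FPKM + 1) scale and were tested with limma over 13653 genes, and a gene was called at a Benjamini-Hochberg adjusted p below 0.05. On this scale the change of a gene near FPKM 1 or below is understated. TAC shifted the median of all genes by 0.14 in WT and 0.13 in KO hearts, and by as much as 0.31 in WT hearts at week 1, and each change below is to be read against that shift. Scaling each library by the median of ratios took the shift out and changed the calls over all genes in WTTAC vs. WTSH from 6574 higher and 1599 lower to 4012 higher and 3628 lower.

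At rest, Tgfb1 was the most abundant of the 10 genes. In the 32 sham hearts it averaged 7.78 ± 1.29 FPKM (SD), Tgfbr3 7.04 ± 0.96, Tgfbr2 5.68 ± 0.72 and Smad7 4.71 ± 0.64. Tgfb1 exceeded Tgfbr3 in 19 of the 32 hearts, so the order of these neighbours was not separated by their spread. Tgfb3 followed at 3.63 ± 0.54, then Tgfbr1 at 3.12 ± 0.36, Tgfb2 at 2.44 ± 0.68 and Fstl3 at 2.26 ± 1.17. Tgfb2 exceeded Fstl3 in 22 of 32 hearts, and the other steps down from Tgfbr3 to Tgfb2 held in 26 to 29 of 32. The activin subunits lay lowest, Inhbb at 0.363 ± 0.113 and Inhba at 0.298 ± 0.165, below FPKM 1 in every sham heart. Both reached FPKM 1 only after TAC, Inhba in 8 and Inhbb in 10 of the 64 libraries. They therefore entered the tests through the group in which they were high, and counts of calls are given for the other 8 genes, which were at FPKM 1 or more in all 64 libraries, unless all 10 are named.

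Of these 8 genes, TAC raised 7 and lowered 1 in both genotypes. In WTTAC vs. WTSH 59.9% of all genes tested were called (48.2% higher and 11.7% lower), and in KOTAC vs. KOSH 62% were called (48% higher and 14% lower), so a call by itself sets no gene apart. By size, the median change of the 8 genes was 0.80 in WT and 0.85 in KO hearts, on a scale where the median of all genes was 0.14 and 0.13. The genes were chosen with earlier results of these data known, so their sizes and ranks are not independent of that choice. Fstl3, Tgfb2 and Tgfb3 ranked 104th, 111th and 116th of 13653 genes by their rise in WT hearts and 119th, 73rd and 138th in KO hearts. RNA was taken from whole cardiac tissue, so more cells that express a gene cannot be told apart from more RNA of it per cell, here or below.

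Tgfb1 is the ligand that fibroblasts, macrophages and other cells secrete, and it roughly doubled. It ran from 6.21 through a median of 7.22 to 10.99 FPKM in the 16 WTSH hearts and from 7.35 through 14.6 to 26.7 in the 16 WTTAC hearts. In KO hearts it ran from 5.80 through 7.75 to 10.7 in KOSH and from 10.99 through 14.9 to 25.0 in KOTAC. The KO groups did not overlap, and in WT 14 of 16 TAC hearts lay above every sham heart. The change was 0.91 ± 0.09 (SE) in WT (2.09-fold in mean FPKM, limma adjusted p = 1.54e-11) and 0.94 ± 0.09 in KO (2.06-fold, adjusted p = 3.08e-12).

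Tgfb2, a ligand with a lower affinity for Tgfbr2 that needs Tgfbr3 to be presented to it, rose by more. WTSH hearts held 1.83 to 4.06 FPKM with a median of 2.41, and WTTAC hearts 2.07 to 21.8 with a median of 8.61. KOSH hearts held 1.45 to 4.28 with a median of 2.18, and KOTAC hearts 4.97 to 24.0 with a median of 9.37. Every KOTAC heart lay above every KOSH heart, as for Tgfb1, Tgfb3, Tgfbr1 and Tgfbr2 and for 2.66% of all genes, while 13 of 16 WTTAC hearts cleared the WTSH range. The change was 1.42 ± 0.19 in WT (3.99-fold, adjusted p = 7.06e-09) and 1.89 ± 0.19 in KO (5.40-fold, adjusted p = 2.73e-12).

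Tgfb3, the remaining ligand, had the widest range of the 10 genes. It ran from 3.09 through 3.66 to 4.71 FPKM in WTSH and from 4.62 through 9.03 to 53.4 in WTTAC. In KO hearts it ran from 2.83 through 3.57 to 4.19 and from 6.38 through 10.02 to 32.9. Again the KO groups were fully separated, and in WT only 2 TAC hearts fell inside the sham range. The change was 1.38 ± 0.16 in WT (4.00-fold, adjusted p = 5.07e-10) and 1.48 ± 0.16 in KO (3.64-fold, adjusted p = 5.12e-11).

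**Figure D1:**
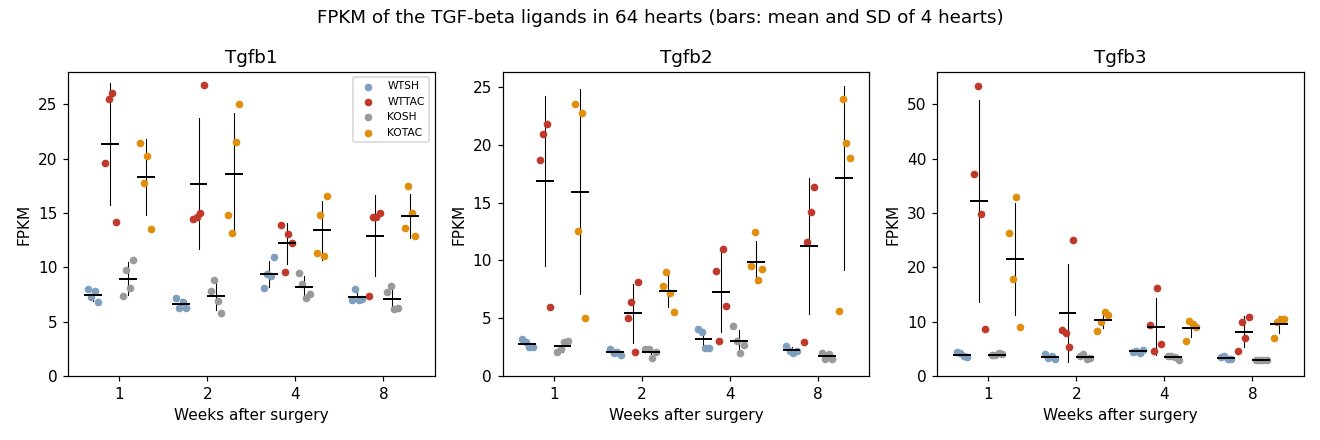
FPKM of Tgfb1, Tgfb2 and Tgfb3 (vertical axes, linear, from 0) by week after surgery (horizontal axes); each point is 1 heart, colored by condition, and black bars give the mean and SD of 4 hearts. Tgfb3 reached 53.4 FPKM in WTTAC hearts at week 1, Tgfb2 reached 24.0 in KOTAC hearts at week 8, and sham hearts of both genotypes stayed within 10.99 for all 3 genes.

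The time courses of the ligands are given side by side, and differences in course between ligands were not tested. At week 1 the 4 WTTAC hearts held 8.65, 29.7, 37.1 and 53.4 FPKM of Tgfb3, and at week 8 they held 4.64, 7.02, 9.93 and 10.9. Their WTSH counterparts held 3.39 to 4.39 at week 1 and 3.09 to 3.70 at week 8, so all WTTAC hearts lay above sham hearts at both weeks. At these weeks 45.5% and 14% of all genes were likewise higher without overlap. The TAC effect on Tgfb3 was 2.52 ± 0.32 at week 1 and 1.00 ± 0.32 at week 8 (adjusted p = 8.51e-09 and 0.0249), a drop of the effect of −1.52 ± 0.46 (adjusted p = 0.0130). That call ended under median-of-ratios scaling (−1.21 ± 0.42, adjusted p = 0.0624) and quantile normalization (−1.27 ± 0.43, adjusted p = 0.0536). In KO hearts the effect on Tgfb3 was 2.05 ± 0.32 at week 1 and 1.41 ± 0.32 at week 8, a difference that was not called (−0.64 ± 0.46, adjusted p = 0.838). Tgfb2 was high at both ends, although the F test among weeks did not call it in either genotype. The 4 WTTAC hearts held 5.96, 18.7, 20.9 and 21.8 FPKM at week 1 and 2.92, 11.6, 14.2 and 16.4 at week 8, with lower levels between (2.07, 5.03, 6.39 and 8.14 at week 2). Without the 4 length-biased libraries the WT effect on Tgfb2 at week 2 was 1.13 ± 0.45 (limma adjusted p = 0.0588). In KOTAC hearts Tgfb2 stood at 4.97, 12.5, 22.7 and 23.5 at week 1 and 5.64, 18.9, 20.1 and 24.0 at week 8. At both weeks TAC and sham hearts of either genotype did not overlap. The same held, with TAC higher, for 45.5% and 14% of all genes in WT hearts and 30.6% and 35.4% in KO hearts. The TAC effect at week 8 was 1.73 ± 0.37 in WT and 2.60 ± 0.37 in KO (adjusted p = 0.000751 and 4.90e-07), a 10.1-fold difference of mean FPKM in KO hearts, and its change from week 1 to week 8 did not pass the test in either genotype (−0.37 ± 0.53 in WT, 0.55 ± 0.53 in KO, adjusted p = 0.642 and 0.914). Tgfb1 fell from an effect of 1.36 ± 0.19 at week 1 to 0.70 ± 0.19 at week 8 in WT, where the week 8 to week 1 difference missed the threshold (adjusted p = 0.0607), and stood at 0.94 ± 0.19 and 0.96 ± 0.19 in KO.

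The mix of ligands was also set side by side between sham and TAC hearts, a comparison made after the values were seen and given without a test. Expressed as a share of the summed FPKM of the 3 ligands, which does not depend on how a library was scaled, Tgfb1 made up 54.7 ± 3.2% in WTSH and 57.7 ± 3.4% in KOSH hearts, and 43.5 ± 11.2% in WTTAC and 41.3 ± 9.5% in KOTAC hearts. Tgfb2 made up 18.1 ± 2.7% and 16.8 ± 3.1% in sham hearts and 24.1 ± 8.2% and 29.5 ± 9.8% after TAC. Without the 4 length-biased libraries the Tgfb2 share was 25.9% in WTTAC and 31.5% in KOTAC. At week 8 the 4 KOTAC hearts held Tgfb2 shares of 21.4, 44.2, 44.7 and 46.7%, against 11.7, 13.6, 15.8 and 17.2% in KOSH, so the groups did not overlap. In the 4 WTTAC hearts at week 1 Tgfb3 took 30.1, 38.3, 49.2 and 53.5%, against 26.0 to 29.3% in WTSH. Tgfb1 exceeded both other ligands in every sham heart. Tgfb3 exceeded Tgfb1 in 3 of 4 WTTAC and 2 of 4 KOTAC hearts at week 1 and in 1 WTTAC heart at week 4. Tgfb2 exceeded Tgfb1 in 3 of 4 KOTAC and 1 of 4 WTTAC hearts at week 8 and in 2 KOTAC hearts at week 1.

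**Figure D2:**
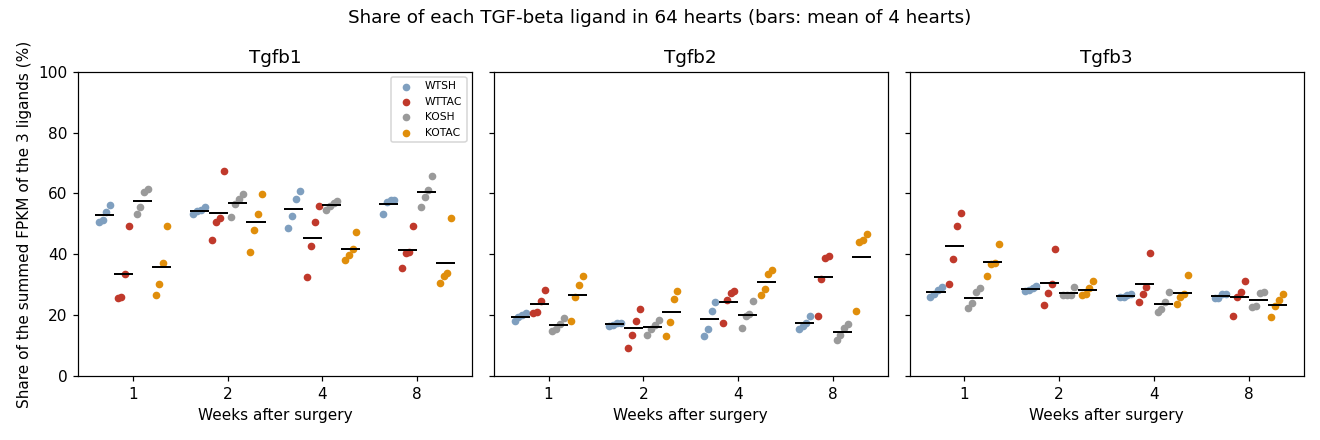
Share of each ligand in the summed FPKM of Tgfb1, Tgfb2 and Tgfb3 (vertical axis, percent) by week after surgery; points are hearts and black bars are means of 4 hearts. The Tgfb1 share in sham hearts stayed between 48.7 and 65.7%, and the Tgfb2 share reached a mean of 39.2% in KOTAC hearts at week 8.

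Among the receptors, the signaling pair rose and the co-receptor fell. Tgfbr2, the type II receptor that binds the ligand, ran from 4.78 through 5.82 to 8.11 FPKM in WTSH and from 6.37 through 9.13 to 18.3 in WTTAC. In KO hearts it ran from 4.59 through 5.35 to 6.60 and from 7.45 through 9.58 to 15.7. The KO groups were separate, and 12 of 16 WTTAC hearts lay above every WTSH heart. Its change was 0.67 ± 0.07 in WT and 0.76 ± 0.07 in KO (adjusted p = 6.14e-11 and 9.14e-13). Tgfbr1, the type I receptor kinase, changed by 0.69 ± 0.09 and 0.70 ± 0.09 (adjusted p = 4.18e-09 and 2.35e-09), from medians of 3.05 in WTSH and 3.04 in KOSH to 5.71 in WTTAC and 5.45 in KOTAC. Its lowest KOTAC heart, at 4.23, still exceeded the highest KOSH heart, at 3.85.

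Tgfbr3 (betaglycan), a membrane proteoglycan without kinase activity that presents ligand to Tgfbr2, was the only one of the 10 genes that was lower after TAC. WTSH hearts held 6.10 to 8.48 FPKM with a median of 7.64 and WTTAC hearts 4.71 to 8.11 with a median of 5.39. KOSH hearts held 5.16 to 8.39 with a median of 6.49 and KOTAC hearts 3.34 to 7.40 with a median of 5.04. The groups overlapped in both genotypes, with 11 of 16 WTTAC hearts and 8 of 16 KOTAC hearts below every sham heart of their genotype. The change was −0.34 ± 0.07 in WT and −0.33 ± 0.07 in KO (adjusted p = 8.59e-05 and 0.000171), in both cases among the lowest 7% of genes, and scaling by the median of ratios or by quantiles kept the direction. The gene model of Tgfbr3 (5: 107535589 to 107718648, minus strand, mm9) overlaps Gm8145 on the other strand, and whether the counting used strand was not stated. As a share of the 3 receptors, Tgfbr3 made up 45.3 ± 3.3% in WTSH and 43.4 ± 3.9% in KOSH hearts but 27.4 ± 8.1% in WTTAC and 24.6 ± 5.0% in KOTAC. Tgfbr2 took most of that room, going from 35.6 ± 2.9% to 46.1 ± 4.5% in WT and from 36.1 ± 2.4% to 48.0 ± 4.4% in KO hearts.

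**Figure D3:**
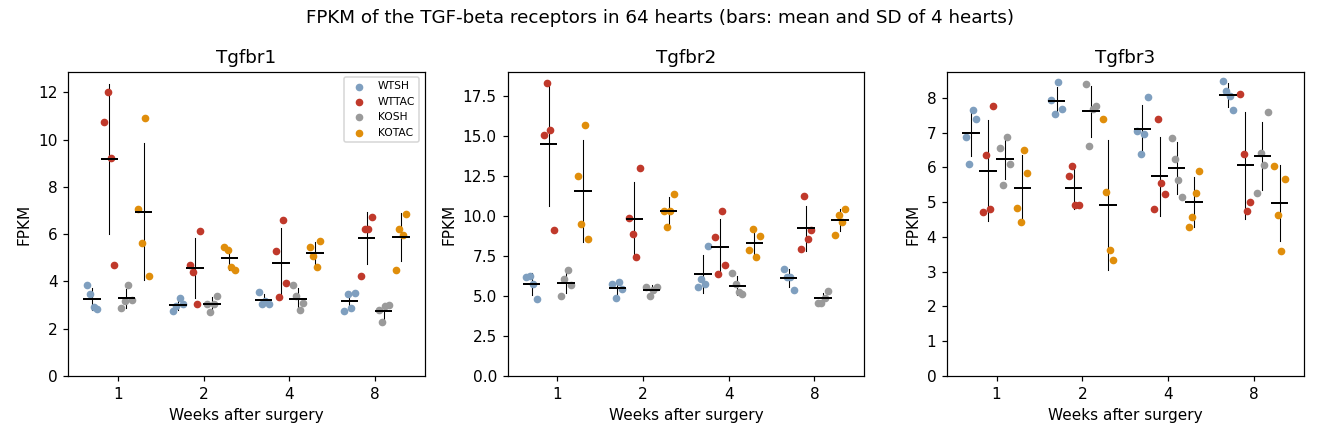
FPKM of Tgfbr1, Tgfbr2 and Tgfbr3 (vertical axes, linear, from 0) by week after surgery; each point is 1 heart and black bars give the mean and SD of 4 hearts. Tgfbr1 and Tgfbr2 lay highest in WTTAC hearts at week 1 (up to 12.0 and 18.3 FPKM), and Tgfbr3 lay lower after TAC with overlapping groups.

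In the activin branch, the inhibitor and both subunits lay higher after TAC. Fstl3, which binds activin outside the cell, held 1.24 to 2.64 FPKM with a median of 2.06 in WTSH and 2.61 to 16.3 with a median of 6.85 in WTTAC. KOSH hearts held 1.42 to 8.25 with a median of 1.96 and KOTAC hearts 5.14 to 17.2 with a median of 7.51. The WT groups met at their edges, with 15 of 16 WTTAC hearts above every WTSH heart, and the KO groups overlapped only through 1 sham heart, heart 1 of KOSH at week 4, whose value of 8.25 stood far above the next KOSH value of 2.75. The change was 1.47 ± 0.14 in WT (4.00-fold, adjusted p = 2.27e-12) and 1.56 ± 0.14 in KO (3.80-fold, adjusted p = 1.70e-13). Like Tgfb2, Fstl3 was high at both ends: the WTTAC hearts held 6.74, 8.50, 10.02 and 16.1 at week 1, 2.61, 5.65, 6.01 and 7.70 at week 2, and 4.08, 11.3, 15.1 and 16.3 at week 8. The F test among weeks did not call Fstl3 in either genotype. In KOTAC hearts it stood at 9.61, 14.6, 16.4 and 17.2 at week 8, clear of the 1.68 to 2.12 of KOSH, where 35.4% of all genes were higher without overlap. That week 8 effect in KO hearts, 2.40 ± 0.28 (7.76-fold, adjusted p = 1.06e-08), ranked 64th of 13653 genes. The gene model of Fstl3 (10: 79240017 to 79245375, plus strand, mm9) overlaps Prss57 on the other strand.

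Inhba encodes the βA subunit of activin A. WTSH hearts held 0.116 to 0.562 FPKM with a median of 0.245, WTTAC hearts 0.239 to 2.72 with a median of 0.860, KOSH hearts 0.150 to 0.883 with a median of 0.248 and KOTAC hearts 0.340 to 1.26 with a median of 0.695. The groups overlapped in both genotypes, and the highest values were in WTTAC hearts at week 1 (0.544, 1.52, 2.03 and 2.72). The mean FPKM was 3.74-fold higher in WT and 2.28-fold in KO hearts, and the change was 0.60 ± 0.09 and 0.39 ± 0.09, which the log2(FPKM + 1) scale understates at these levels. Because Inhba passed the filter through TAC hearts alone, its test is given from the fit of all genes without a filter (limma adjusted p = 4.86e-07 and 0.000561). Inhbb, the βB subunit of activin B, had its highest values late and in KO hearts. KOTAC hearts held 0.404, 0.409, 0.492 and 0.692 FPKM at week 1 and 1.197, 1.63, 2.28 and 2.32 at week 8, against 0.275 to 0.675 and 0.277 to 0.381 in KOSH. Sham and TAC hearts overlapped at week 1 and were apart at week 8, where 35.4% of all genes were higher without overlap. The TAC effect was larger by 1.02 ± 0.21 at week 8 than at week 1. Inhbb too passed the filter through TAC hearts alone, and the adjusted p was 0.0260 without a filter and 0.0232 with it, where 0.154% of all genes were called, 0.0732% as higher and 0.0806% as lower. The call with the filter was lost without any 1 of 8 hearts: KOSH hearts 2 and 3 and KOTAC hearts 1 and 2 of week 1, or KOSH hearts 3 and 4 and KOTAC hearts 3 and 4 of week 8. None of the other genes was called for this difference, and 1 of the 8 was without KOTAC heart 2 of week 8. In WT hearts the same difference was 0.16 ± 0.21 (adjusted p = 0.612), and the difference between genotypes in this change was not tested.

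Smad7 blocks the activated type I receptor and is a direct target of the pathway. WTSH hearts held 3.50 to 5.77 FPKM with a median of 4.69, WTTAC hearts 4.86 to 9.73 with a median of 6.73, KOSH hearts 3.55 to 5.78 with a median of 4.73 and KOTAC hearts 5.63 to 13.3 with a median of 7.84. Groups overlapped slightly, with 14 of 16 WTTAC and 15 of 16 KOTAC hearts above every sham heart of their genotype. The change was 0.50 ± 0.07 in WT and 0.69 ± 0.07 in KO (adjusted p = 4.78e-08 and 8.87e-12). Over the weeks the effect differed in KO hearts (F test, adjusted p = 0.0421) and not past the threshold in WT hearts (adjusted p = 0.144). The KO call was lost under median-of-ratios scaling, quantile normalization, no filter, a fit of only the hearts compared and the replicate block. It was also lost without the 4 length-biased libraries, while array weights called 4 of the 8 genes. At week 1 the WT effect of 0.34 ± 0.14 was hardly above the median shift of all genes at that week, 0.31, and turned to −0.06 under quantile normalization. At week 8 it was 0.81 ± 0.14 in WT and 1.23 ± 0.14 in KO (adjusted p = 6.30e-05 and 1.06e-08), where KOTAC hearts held 7.15, 10.2, 10.999 and 13.3 FPKM and KOSH hearts 3.55, 3.55, 3.64 and 4.42. The group means of Smad7 were highest at week 8 in WTTAC and KOTAC hearts, whereas those of Tgfb3 were highest at week 1 in both.

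**Figure D4:**
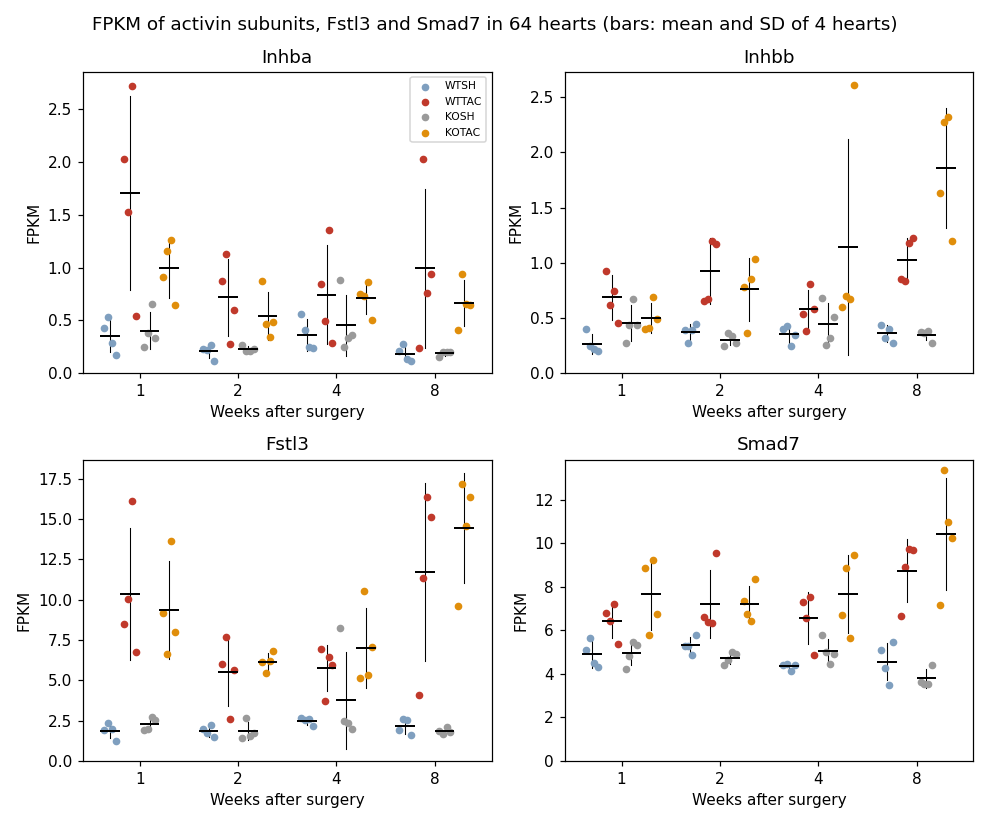
FPKM of Inhba, Inhbb, Fstl3 and Smad7 (vertical axes, linear, from 0) by week after surgery; each point is 1 heart and black bars give the mean and SD of 4 hearts. Inhbb, Fstl3 and Smad7 were highest in KOTAC hearts at week 8 (up to 2.32, 17.2 and 13.3 FPKM), apart from heart 5 of KOTAC at week 4, which held 2.61 FPKM of Inhbb, and Inhba was highest in WTTAC hearts at week 1.

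The stretches upstream of the starts of Tgfb2 and Fstl3, the pair of genes with the strongest week 8 effects in KO hearts, are printed here because both hold the hexamer CAGACA, which contains the CAGA core that Smad3 and Smad4 recognize, within 250 bases; so does 1 of the 2 starts listed for Tgfbr1. The sequences are from RefSeq (GRCm38.p6), run from 5′ to 3′ on the strand of the gene and end at the base before the start, with the hexamer or its reverse complement TGTCTG in capitals.
Tgfb2, chr1:186705990-186706239, minus strand: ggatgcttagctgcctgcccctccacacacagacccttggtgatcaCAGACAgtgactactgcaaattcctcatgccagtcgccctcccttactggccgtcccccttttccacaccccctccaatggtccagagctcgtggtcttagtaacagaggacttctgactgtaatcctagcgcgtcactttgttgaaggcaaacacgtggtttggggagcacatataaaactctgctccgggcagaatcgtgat
Fstl3, chr10:79777024-79777273, plus strand: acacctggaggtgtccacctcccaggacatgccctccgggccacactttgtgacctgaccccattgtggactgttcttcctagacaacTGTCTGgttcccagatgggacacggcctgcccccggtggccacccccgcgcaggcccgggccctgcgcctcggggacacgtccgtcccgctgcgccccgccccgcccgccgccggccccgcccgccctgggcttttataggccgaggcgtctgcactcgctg
Tgfbr1, chr4:47385966-47386215, plus strand: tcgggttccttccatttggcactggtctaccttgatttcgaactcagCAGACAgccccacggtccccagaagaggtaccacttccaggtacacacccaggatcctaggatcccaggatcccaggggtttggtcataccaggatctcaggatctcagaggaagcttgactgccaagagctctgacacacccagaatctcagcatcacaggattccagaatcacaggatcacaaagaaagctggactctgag
The match begins 204 bases before the start in Tgfb2, 162 in Fstl3 (on the other strand) and 203 in Tgfbr1. Of 32851 windows of this length, 17.1% hold the hexamer on either strand, and of the 8 windows listed for 7 of the 10 genes 3 do; Tgfb1, Tgfbr2, Inhba, Inhbb and the other start of Tgfbr1 do not hold these letters. A match describes the sequence and is not a binding site. Tgfb3, Tgfbr3 and Smad7 were not matched to a window.

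Week by week, calls were made in every week but week 4 of WT hearts. At weeks 1, 2 and 8 WTTAC vs. WTSH called Tgfb1, Tgfb2, Tgfb3, Tgfbr1, Tgfbr2, Fstl3 and Smad7, 7 of the 8, as higher. Over all genes, 51.2% were called as higher and 4.83% as lower at week 1 (56% in all), 35.8% and 10.5% at week 2 (46.4%), and 10.3% and 6.12% at week 8 (16.4%). Tgfbr3 was called as lower at week 2, with hearts at 4.90, 4.90, 5.75 and 6.04 FPKM in WTTAC and 7.53 to 8.46 in WTSH. At week 4 limma called none of the 8, with 0.0439% of all genes called as higher and 0.168% as lower (0.212%). At an unadjusted p below 0.05 there were 6 of the 8, and 1561 of all 13653 genes. Fstl3 (0.94 ± 0.28, adjusted p = 0.131) and Smad7 (0.49 ± 0.14, adjusted p = 0.123) lay higher in every TAC heart than in every sham heart, as did 3.22% of all genes. Fstl3 was called there without WTTAC heart 2, the lowest of its group. KOTAC vs. KOSH called the same 7 of 8 as higher at every week and Tgfbr3 as lower at week 2 (−0.59 ± 0.15, adjusted p = 0.00132). Over all genes 31.9% were called as higher and 5.01% as lower at week 1 (36.9%), 24.6% and 17.9% at week 2 (42.4%), 8.27% and 2.13% at week 4 (10.4%), and 34.6% and 5.54% at week 8 (40.2%). At week 8 of WT hearts the 7 calls included Tgfb2, Fstl3 and Smad7 at 5.08-fold, 5.47-fold and 1.92-fold.

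Some of these weekly calls rested on few hearts. Without the 4 length-biased libraries 4 of the 8 genes were called in WT hearts at week 2 in place of 8 (Tgfb1, Tgfb3, Tgfbr2 and Fstl3), and 7 in place of 8 in KO hearts, with Tgfbr3 not called in either (−0.37 ± 0.16 in WT and −0.24 ± 0.16 in KO, adjusted p = 0.0926 and 0.311). Calls over all 13653 genes fell as well, from 6330 to 3294 in WT and from 5795 to 2739 in KO hearts. In WT hearts 5 of the 8 were left at week 2 without WTSH heart 2 or WTTAC heart 4. At week 4 of KO hearts, where 7 of the 8 were called, 1 was left without KOSH heart 3, KOSH heart 4, KOTAC heart 2 or KOTAC heart 5. Under median-of-ratios scaling Tgfbr3 was also called as lower in WT hearts at week 1 (−0.55 ± 0.15, adjusted p = 0.00247) and in both genotypes at week 8 (−0.44 ± 0.15 in WT and −0.52 ± 0.15 in KO, adjusted p = 0.0304 and 0.00604).

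The TAC effect differed among weeks for Tgfb1, Tgfb3, Tgfbr1 and Tgfbr2 in WT hearts (F test in limma, adjusted p = 0.00484, 0.00811, 0.0333 and 0.00491), where 38.3% of all genes were called, and under median-of-ratios scaling that call was left for Tgfb3 (adjusted p = 0.0337) and made for Smad7 (adjusted p = 0.0102), with Tgfb1, Tgfbr1 and Tgfbr2 not called (adjusted p = 0.0520, 0.117 and 0.0749). Tgfbr2, like Tgfb3, was higher early: WTTAC hearts held 9.15, 15.1, 15.4 and 18.3 FPKM at week 1 and 7.95, 8.59, 9.12 and 11.3 at week 8, and its effect fell by 0.65 on the log2 scale (SE 0.20, adjusted p = 0.0171), or by 0.36 under median-of-ratios scaling (adjusted p = 0.212). Between week 8 and week 1 in WT hearts 23.4% of all genes were called, 0.439% as higher and 22.9% as lower. Of the 8 genes only Smad7 had a TAC effect that moved upward from week 1 to week 8 (0.47 ± 0.20, limma adjusted p = 0.0775). That difference was called under median-of-ratios scaling (0.75 ± 0.18, adjusted p = 0.00496). In KO hearts the effect differed among weeks for Inhbb and Smad7 (adjusted p = 0.0202 and 0.0421), where 2.96% of all genes were called. Inhbb passed the filter through TAC hearts alone, and its adjusted p without a filter was 0.0316 (F test). Smad7 was not called without a filter, under median-of-ratios scaling or quantile normalization, or without the 4 length-biased libraries. Without WTTAC heart 5 of week 1, which was the lowest of its group for all 9 genes that rose, 6 of the 8 genes in place of 4 were called among weeks and 4 in place of 2 between weeks 8 and 1 in WT hearts; without WTTAC heart 2 of week 1 none was called between weeks 8 and 1. For KO hearts the call of Smad7 among weeks was lost without any 1 of KOSH hearts 2 and 4 of week 1, hearts 1 to 4 of week 2, heart 1 of week 4 and hearts 1, 2 and 3 of week 8, and KOTAC hearts 3 and 4 of week 2, hearts 1 and 3 of week 4 and hearts 3, 4 and 5 of week 8, and 2 of the 8 genes were called without KOSH heart 4 of week 4 or KOTAC hearts 1 or 2 of week 2, heart 2 of week 4 or heart 2 of week 8. In sham hearts none of the 10 genes was called between weeks 8 and 1 (0.315% of all genes, 0.0659% higher and 0.249% lower). An unadjusted p below 0.05 was held by 1 of 10, Smad7 at −0.20 ± 0.10, and by 1204 of all 13653 genes.

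**Figure D5:**
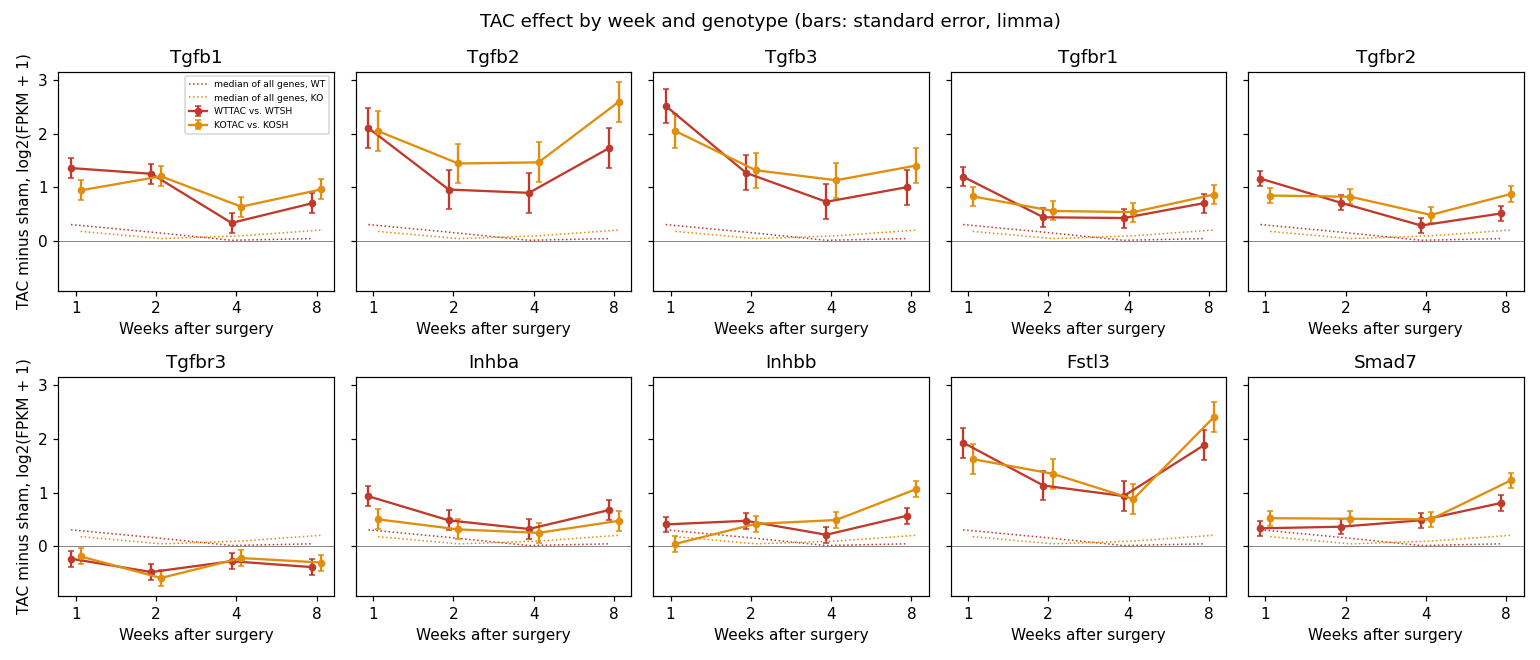
TAC effect on log2(FPKM + 1) (vertical axis; bars, standard error) by week after surgery for each gene in WT (red) and KO (orange) hearts; dotted lines give the median effect over all 13653 genes. Tgfb3 declined from 2.52 at week 1 in WT hearts, Tgfb2 and Fstl3 were high at weeks 1 and 8, Inhbb and Smad7 rose to week 8 in KO hearts, and Tgfbr3 lay below 0; the WT point of Smad7 at week 1 turns below 0 under quantile normalization.

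Deletion of Ndufs4 did not separate the 10 genes from their wild type levels by test. KOSH vs. WTSH in limma called none of them (0.0513% of all genes were called, 0.0293% as higher and 0.022% as lower). Neither did KOTAC vs. WTTAC (0.82% of all genes, 0.11% higher and 0.71% lower) or the interaction of genotype and TAC (0% of all genes). An unadjusted p below 0.05 was held by 1 of 10 in KOSH vs. WTSH (631 of all 13653 genes), 2 of 10 in KOTAC vs. WTTAC (1821) and 0 of 10 in the interaction (312). Sizes remain uncertain within the intervals of the differences. For Tgfb2, with medians of 8.61 FPKM in WTTAC and 9.37 in KOTAC, KOTAC vs. WTTAC was 0.36 with a 95% interval of −0.01 to 0.73 (adjusted p = 0.398), and the interaction 0.46 with an interval of −0.06 to 0.99. For Smad7 the same values were 0.15 (0.01 to 0.30, adjusted p = 0.331) and 0.19 (−0.01 to 0.39). Tgfb1 gave 0.05 (−0.13 to 0.24) and Tgfb3 −0.02 (−0.34 to 0.31) in KOTAC vs. WTTAC. Tgfbr3 was lower in KO hearts by −0.18 under sham (−0.33 to −0.03, adjusted p = 0.993) and −0.16 under TAC (−0.31 to −0.02, adjusted p = 0.320), neither past the threshold.

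Hearts of 1 group tended to be high or low for several of the genes together. Of the 9 genes that were higher after TAC, WTTAC heart 5 of week 1 was the lowest of its group for 9, WTTAC heart 2 of week 8 for 8, and KOTAC heart 2 of week 8 for 7. The share of all genes raised by TAC that were lowest in these hearts was not counted. The libraries held 12615, 12142 and 12150 genes at FPKM 1 or more, against 13006 to 13101, 12006 to 12231 and 12225 to 12363 in the others of their groups. WTTAC heart 5 of week 1 also had the lowest summed FPKM of the 10 fibroblast markers in its group, 1155 against 2484 to 3030, and of the 10 macrophage markers, 276 against 562 to 681. WTTAC heart 2 of week 8 had the lowest fibroblast sum of its group, 810 against 1028 to 1493, but a macrophage sum of 167 within the range of 110 to 195 of the others. KOTAC heart 2 of week 8 had a fibroblast sum of 1040 within the 1020 to 1272 of the others and the highest macrophage sum, 213 against 144 to 201. After each heart was set against the mean of its week, Smad7 was positively related to each TGF-β ligand in the 16 WTTAC hearts: r = 0.788 with Tgfb1 (Spearman's rho = 0.682), 0.720 with Tgfb2 (rho = 0.862) and 0.742 with Tgfb3 (rho = 0.738), with an adjusted permutation p of 0.0174 for each r and 0.0221, 0.00256 and 0.0133 for the rho values. In the 16 KOTAC hearts r was 0.602 with Tgfb1 (rho = 0.559, adjusted permutation p = 0.0231 and 0.0365), 0.651 with Tgfb2 (rho = 0.638, 0.0429 and 0.0403) and 0.498 with Tgfb3 (rho = 0.479, 0.0933 and 0.113). Fstl3 followed Inhba in WTTAC hearts (r = 0.669, rho = 0.624, adjusted permutation p = 0.0319 and 0.0414) and not past the threshold in KOTAC hearts (r = 0.304, rho = 0.241, adjusted permutation p = 0.286 and 0.398). All p-values are two-sided, from 100000 permutations within weeks, and adjusted over 8 relations. The relations were not repeated under another scaling of the libraries. Relations of Smad7 or Fstl3 with other genes were not computed, so these r values are not set against those of genes at large.

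Leaving out the 2 hearts farthest from the median of the ligand gave r = 0.680, 0.568 and 0.637 for the ligands with Smad7 in WTTAC and 0.617, 0.566 and 0.519 in KOTAC, and 0.715 and 0.317 for Inhba with Fstl3. Without the length-biased libraries the ligands kept r of 0.697, 0.754 and 0.643 with Smad7 in 14 WTTAC hearts, r without the 2 farthest hearts falling to 0.341 for Tgfb1, and rho no longer past the threshold for Tgfb1 and Tgfb3 (adjusted permutation p = 0.0963 for both), and 0.757, 0.717 and 0.521 in 14 KOTAC hearts. Inhba with Fstl3 in WTTAC then had r = 0.623 and lost its call (adjusted permutation p = 0.0958), and in KOTAC had r = 0.370 (adjusted permutation p = 0.232).

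Other genes of the pathway were read from lists, and each count is to be read against the 48.2% of all genes called as higher and 11.7% as lower in WT hearts and the 48% and 14% in KO hearts, and each median change against 0.14 and 0.13. The lists were chosen with earlier results of these data known, so no count from them is independent of that choice. They hold 8 genes that passed the filter only through TAC hearts and had to differ, so counts are also given without those genes. Of 16 genes of TGF-β latency and activation 15 were tested, and 12 were higher and 1 lower in both WTTAC vs. WTSH and KOTAC vs. KOSH (median change 0.74 and 0.78), or 11 and 1 of 14 without Itgb3, which passed through TAC hearts. Ltbp2, a matrix protein of the latent TGF-β binding protein family, rose from 1.03 ± 0.55 to 25.5 ± 24.6 FPKM in WT hearts and from 1.21 ± 0.67 to 28.0 ± 16.0 in KO hearts (3.03 ± 0.28 and 3.60 ± 0.28 on the log2 scale, adjusted p = 1.15e-12 and 2.72e-15). Fibrillin-1 (Fbn1), the scaffold to which latent complexes attach, rose by 1.95 ± 0.16 and 2.00 ± 0.16, Thbs1, which can activate latent TGF-β, by 2.51 ± 0.25 and 2.22 ± 0.25, Emilin1, which restrains the processing of its precursor, by 1.57 ± 0.13 and 1.61 ± 0.13, and Ltbp4, which binds latent TGF-β1, by 1.01 ± 0.11 and 1.24 ± 0.11. The genes named thus include some that hold latent TGF-β and 1 that can release it.

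Of 23 other ligands of the superfamily 7 reached the filter, and 4 were higher and none lower in both genotypes, or 3 of 6 without Gdf6, which reached FPKM 1 in 23 TAC and 0 sham libraries. Gdf15, a stress-induced secreted factor, rose from 0.53 ± 0.19 to 7.75 ± 7.87 FPKM in WT hearts and from 1.22 ± 0.71 to 16.6 ± 17.4 in KO hearts. It was the only gene of the 6 lists called in a comparison of genotypes (KOTAC vs. WTTAC, 1.11 ± 0.27, limma adjusted p = 0.0290), where 0.82% of all genes were called. The 112 calls over all genes there became 7 with only the hearts compared, 42 without the length-biased libraries and 8 without week 2. The Gdf15 call was not followed in these fits. Gdf6 held at most 0.307 FPKM in WTSH and 0.477 in KOSH and averaged 1.46 in WTTAC and 2.33 in KOTAC. Bmp4 rose by 0.57 ± 0.08 and 0.64 ± 0.08, and Lefty1 by 0.42 ± 0.09 and 0.63 ± 0.09. Of 12 other receptors 7 were tested, with 3 higher in both genotypes and none lower, and their median change was 0.00 in WT and 0.01 in KO hearts and turned to −0.13 and −0.12 under median-of-ratios scaling. Acvr1 and Acvrl1, type I receptors used by bone morphogenetic proteins, rose by 0.50 ± 0.08 and 0.44 ± 0.07 in WT and 0.50 ± 0.08 and 0.48 ± 0.07 in KO hearts. Endoglin (Eng), an endothelial co-receptor, was at 0.29 ± 0.07 and 0.24 ± 0.07, and lost its call under median-of-ratios scaling (0.13 and 0.09, adjusted p = 0.147 and 0.350). The activin type I receptor Acvr1b was at −0.10 ± 0.08 and −0.07 ± 0.08 and was not called, and was lower under that scaling (−0.23 and −0.20, adjusted p = 0.00903 and 0.0219).

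Of 20 Smads and their regulators 19 were tested. In WT hearts 11 were higher and 1 lower, and in KO hearts 12 higher and 1 lower, with 48.2% and 48% of all genes called as higher. The median change was 0.20 and 0.21, not far above the 0.14 and 0.13 of all genes. Without Tgif2, which passed through TAC hearts, 10 and 11 of 18 were higher. Under median-of-ratios scaling 7 were higher and 2 lower in WT and 9 higher and 4 lower in KO hearts. Pmepa1, Tgif1 and Skil, negative regulators of Smad signaling of which Pmepa1 and Skil are also its targets, rose by 1.38 ± 0.13, 0.99 ± 0.10 and 0.55 ± 0.07 in WT hearts and 1.33 ± 0.13, 1.08 ± 0.10 and 0.64 ± 0.07 in KO hearts. Smad1, which transmits bone morphogenetic protein signals, rose by 0.52 ± 0.06 and 0.56 ± 0.06. Of 17 secreted and membrane antagonists 10 were tested, and 8 were higher and 1 lower in both genotypes, or 6 and 1 of 8 without Fst and Chrd, which passed through TAC hearts. Under median-of-ratios scaling 5 of the 10 were higher in WT and 6 in KO hearts with 2 lower in each, and under quantile normalization 5 and 4 with 2 lower. Adamtsl2, a matrix protein that binds latent TGF-β binding protein, rose from 2.56 ± 0.67 to 19.5 ± 10.1 FPKM in WT hearts and from 3.16 ± 0.995 to 28.0 ± 10.4 in KO hearts. Decorin (Dcn) and fibromodulin (Fmod), matrix proteoglycans that bind TGF-β, rose by 0.84 ± 0.11 and 2.27 ± 0.42 in WT hearts, the pseudoreceptor Bambi by 0.55 ± 0.08, and the protease Htra1 was lower by −0.30 ± 0.07 in WT and −0.38 ± 0.07 in KO hearts.

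Of 26 genes commonly induced by TGF-β all were tested, and 25 were higher in WT hearts and 26 in KO hearts, none lower, with a median change of 1.47 and 1.24, or 22 and 23 of 23 without Cdkn2b, Itga11 and Wisp1, which passed through TAC hearts. Periostin (Postn), a matrix protein of activated fibroblasts, rose from 11.1 ± 3.96 to 282 ± 326 FPKM in WT hearts and from 12.8 ± 5.14 to 286 ± 140 in KO hearts. In WT hearts its TAC effect was 5.81 ± 0.53 at week 1 and 3.89 ± 0.53 at week 8. Lox, which crosslinks collagen, changed by 4.72 ± 0.46 and 2.62 ± 0.46 at these weeks, and Cilp, a matrix protein of cartilage and fibrotic heart, by 4.64 ± 0.60 and 4.06 ± 0.60. The list shares Col1a1, Col1a2 and Col3a1 with the fibroblast markers, Acta2 and Tagln with the smooth muscle markers and Ltbp2 with the latency list. Because it was chosen with earlier results of these data known, its count is no independent measure of a response to TGF-β.

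Markers of other cells moved with these genes. All 8 cardiomyocyte markers were present, although Myh6, one that defines the cell type, was listed at 0 in some WTSH and KOSH libraries, and their summed FPKM ran from 29428 to 36854 in WTSH, 25550 to 41150 in WTTAC, 27333 to 34565 in KOSH and 22544 to 33308 in KOTAC. None of the 8 was called as higher, while 4 in WT and 5 in KO hearts were lower. Over all genes 48.2% were called as higher and 11.7% as lower in WT hearts, and 48% and 14% in KO hearts. Of 10 fibroblast markers 9 were higher in both genotypes (summed FPKM of 587 to 1015 in WTSH and 743 to 3030 in WTTAC, 547 to 891 in KOSH and 1020 to 2645 in KOTAC), and of 10 macrophage markers 9 were higher in both (104 to 218 and 110 to 681, 95.3 to 166 and 136 to 465). Of 8 endothelial markers 7 were higher in both (202 to 322 and 228 to 639, 196 to 268 and 227 to 548), although under median-of-ratios scaling 4 were higher in WT hearts and 2 higher and 1 lower in KO hearts, and of 8 smooth muscle and pericyte markers 5 were higher in WT and 6 in KO hearts with 1 lower in each (240 to 385 and 235 to 602, 215 to 321 and 223 to 427). The highest endothelial sums of TAC hearts were in length-biased libraries, hearts 3 and 4 of week 2 (639 and 602 in WTTAC, 469 and 548 in KOTAC). The highest cardiomyocyte and smooth muscle sums of both TAC groups were in such libraries too. Endothelial markers called as higher numbered 3, 8, 0 and 0 of 8 at weeks 1, 2, 4 and 8 in WT hearts. In KO hearts they numbered 1, 7, 0 and 3. Marker calls were not counted without these libraries. The median change of the fibroblast markers in WT hearts was 1.52 at week 1 and 0.63 at week 8 and that of the macrophage markers 1.80 and 0.16, against 1.14 and 0.71 and 1.31 and 0.41 in KO hearts. At these weeks Tgfb3 was at 2.52 and 1.00, Tgfb1 at 1.36 and 0.70 and Tgfbr2 at 1.16 and 0.52 in WT hearts, while Tgfb2 was at 2.11 and 1.73, Fstl3 at 1.93 and 1.89 and Smad7 at 0.34 and 0.81. No marker list held a marker at 0 other than Myh6, and the part of these cell types in the changes of the 10 genes was not tested.

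By their 16 group means of log2(FPKM + 1), centered on the overall mean, the genes nearest to Tgfb3 were Csrp2, Aebp1 and Mrc2, with mean absolute differences of 0.10, 0.10 and 0.11 over a range of 2.84. Fhl1 was near to both Tgfb2 (0.14, with Fxyd6 at 0.14 and Serpinb1c at 0.16, over a range of 2.60) and Fstl3 (0.13, with Efhd2 at 0.12 and Hbegf at 0.14, over a range of 2.43). Rapgef1 was near to both Inhbb (0.10, with Ptgs2 at 0.08 and Slc3a2 at 0.09) and Smad7 (0.10, with Thsd7a at 0.10 and Cysltr1 at 0.10). Nearest to Tgfb1 were Kctd17, Anxa5 and Clic1, to Tgfbr1 Ifitm10, Slc1a4 and Slc39a6, to Tgfbr2 App, Sh3gl1 and Myo1d, and to Inhba Igsf3, Rnd3 and Rab27b, each within 0.07.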

How the data were processed

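RNA libraries (TruSeq) of 64 hearts with RNA integrity numbers of at least 8 were read as paired ends of 50 bases on a HiSeq2000. The FPKM values deposited by the authors came from Cufflinks, run on TopHat alignments to mm9 that were unique and had under 2 mismatches, with Ensembl release 66 and summed over the transcripts of a gene, after read checks with FastQC. Depth is unknown, because at most 29.7% of low values were whole multiples of a common step within a tolerance of 0.05, so no counting interval or count model was possible. The study used a count test; the deposited unit was FPKM, so limma 3.58.1 (R 4.3.3) was fitted to log2(FPKM + 1) with a mean-variance trend and 16 group means, for 13653 genes at FPKM 1 or more in at least 4 libraries. Tables were made in Python 3.11.15 with pandas 2.3.3, and the fit was tested on simulated data. Each heart was a separate mouse, and no column was left unmapped. Condition effects average the 4 weeks, and Inhba and Inhbb were also tested without the filter. Comparisons that share hearts are given side by side only. The 10 genes and all lists were chosen with earlier results of these data known. The genes named are the 10, in every list the 4 with the highest absolute moderated t of either TAC comparison, list genes called between genotypes, and the 3 nearest genes of those changed by at least 0.5. Ligand and receptor shares were added after the values were seen. Alternatives were a pseudocount of 0.1, no filter or a filter at FPKM 5, median-of-ratios scaling, quantile normalization, no trend, array weights, fits of only the hearts compared, a replicate block, leaving out week 2 or the 4 length-biased libraries, and leaving out each heart. Gene models are from GENCODE for mm9; promoter windows are from RefSeq for GRCm38.p6, and coordinates of the builds were not converted.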

Additional observations from a re-analysis of the deposited data

Results flagged for a closer look

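In 10 of 160 groups of 4 hearts, 1 heart lay farther from the rest than Dixon's 95% critical value for 4 values allows; chance flags about 1 in 20 groups. Among WTTAC hearts these were heart 2 of week 8, with 7.35 FPKM of Tgfb1 against 14.6 to 15.0 in the others, heart 5 of week 1, with 5.96 FPKM of Tgfb2 against 18.7 to 21.8, and heart 4 of week 2, 1 of the length-biased libraries, with 26.7 FPKM of Tgfb1 against 14.4 to 15.0 and 9.57 FPKM of Smad7 against 6.32 to 6.59. Heart 2 of KOTAC at week 8 held 7.05 FPKM of Tgfb3 against 9.93 to 10.5, and heart 5 of KOTAC at week 4 held 2.61 FPKM of Inhbb against 0.602 to 0.695. Among sham hearts, heart 1 of KOSH at week 4 held 8.25 FPKM of Fstl3 against 1.95 to 2.46, heart 4 of KOSH at week 8 held 4.42 of Smad7 against 3.55 to 3.64, heart 1 of KOSH at week 8 held 0.150 of Inhba against 0.199 to 0.204, and heart 2 of WTSH at week 8 held 7.96 of Tgfb1 against 6.99 to 7.12.

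The TAC effect differed between weeks in WT hearts for Tgfb1, Tgfb3, Tgfbr1 and Tgfbr2 (limma F test, adjusted p = 0.00484, 0.00811, 0.0333 and 0.00491), and from week 1 to week 8 by −1.52 for Tgfb3 and −0.65 for Tgfbr2. In KO hearts it differed between weeks for Inhbb and Smad7 (adjusted p = 0.0202 and 0.0421), and from week 1 to week 8 by 1.02 for Inhbb. Inhbb passed the filter at FPKM 1 through TAC hearts alone. No cause of these differences was tested.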

How the results depend on the processing

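The direction and call of each of the 10 genes in WTTAC vs. WTSH and KOTAC vs. KOSH, and the lack of a call in the comparisons of genotypes, held under every alternative run, each heart left out included, except that a filter at FPKM 5 left Inhba and Inhbb untested. Counts over all 10 genes called at single weeks and between weeks moved, and the causes were not tested. These counts include Inhba and Inhbb, which passed the filter through TAC hearts alone. Of the other 8 genes, WTTAC vs. WTSH at week 2 called 8. Quantile normalization left 5 of them, only the hearts compared 5, and leaving out the length-biased libraries 4. KOTAC vs. KOSH at week 4 called 7 of the 8, and 5 under quantile normalization and with only the hearts compared. In WTTAC vs. WTSH at week 2 (10 called) quantile normalization gave 5, a fit of only the hearts compared 6 and leaving out the length-biased libraries 5, and at week 4 (0 called) array weights gave 8. Over all genes the 6330 calls of week 2 became 6262, 2571 and 3294 in these fits, and the 29 calls of week 4 became 1716. In KOTAC vs. KOSH at week 4 (8 called) quantile normalization and only the hearts compared gave 5 each, with 1340 and 1109 calls over all genes in place of 1420. For the change of the WT effect over weeks (4 called) median-of-ratios scaling and only the hearts compared gave 2 and array weights 8. The 5229 calls over all genes became 2900, 4160 and 7141 in these fits. For the week 8 minus week 1 difference of the WT effect (2 called) median-of-ratios scaling and quantile normalization gave 1, array weights 5, and only the hearts compared and the replicate block 0. The 3190 calls over all genes became 1125, 1083, 5954, 3125 and 1987 in these fits. For the change of the KO effect over weeks (2 called) array weights gave 5, only the hearts compared 0, and no filter, the filter at FPKM 5, median-of-ratios scaling, quantile normalization, the replicate block and leaving out the length-biased libraries 1 each. Over all genes the 404 calls became, in the same order, 1634, 283, 223 (of 24564 genes), 289 (of 9229), 322, 294, 364 and 100. For the week 8 minus week 1 difference of the KO effect (1 called) the filter at FPKM 5, which drops Inhbb, gave 0 and array weights 2, and in sham hearts between weeks 8 and 1 (0 called) only the hearts compared gave 2. Over all genes the 21 calls of that KO difference became 2 (of 9229 genes) and 640, and the 43 calls of sham hearts became 217.

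Over all 10 genes, Inhba and Inhbb included, leaving out each heart gave 7 to 10, 7 to 10, 0 to 1 and 6 to 10 calls at weeks 1, 2, 4 and 8 in WT hearts, and 7 to 8, 8 to 9, 1 to 8 and 8 to 10 in KO hearts. It gave 3 to 7 calls for the change over weeks and 0 to 4 for weeks 8 minus 1 in WT hearts, and 0 to 3 and 0 to 2 in KO hearts. Calls over all genes are not given for the fits without 1 heart, so these ranges are not set against them. Smad7 in WTTAC vs. WTSH at week 1 turned from 0.34 to −0.0579 under quantile normalization (adjusted p = 0.739) and was 0.02 under median-of-ratios scaling. Heart numbers in TAC and sham groups share only a number: 6 of 25 same-numbered pairs correlated above 0.1 (median −0.031), and 8 of 25 TAC hearts were closest to their own number. Without depth, the precision of single values at low FPKM, Inhba and Inhbb above all, is unknown.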
